A study of Mus musculus with 12 samples.

Results

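Janus kinases are the enzymes that carry a cytokine signal from a receptor at the cell surface into the cell, and the genes described here are those of all 4 of them (Jak1, Jak2, Jak3, Tyk2), of both chains of the interferon gamma receptor (Ifngr1, Ifngr2), of both chains of the type I interferon receptor (Ifnar1, Ifnar2) and of Il10rb, a chain shared by the receptors of IL-10, IL-22 and the lambda interferons. They were chosen by name, 9 of the 55536 genes in the full count table, and all 9 had enough reads to be among the 19800 genes tested. The libraries were total RNA of pancreatic islets, the hormone-secreting cell clusters of the pancreas, from mice of 16 weeks on a mixed background of C57BL/6J. Islets labelled PTPN2 -/-, called Ptpn2-bKO in the protocols (taken to mean deletion in beta cells), gave 3 libraries after 24 h with TNF alpha, IL-1beta and interferon gamma and 3 without. Control islets, labelled PTPN2 +/+ in the titles and PTPN2 fl/fl in the genotype field, likewise gave 3 with the cytokines and 3 without. The labels name neither a Cre line nor the cytokine doses. Islets came from 3 mice of each genotype, so libraries of a genotype may share mice and the p-values below treat them as separate.

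Each receptor chain of this group holds its own kinase. In the interferon gamma receptor, Ifngr1 binds the ligand and carries Jak1, and Ifngr2 brings in Jak2. In the type I receptor, Ifnar2 carries Jak1 and Ifnar1 carries Tyk2. The activated kinases phosphorylate STAT proteins, which enter the nucleus and switch on interferon target genes, and the phosphatase made by Ptpn2 takes phosphate off both kinases and STATs. In beta cells this route is known for raising antigen presentation and chemokines during islet inflammation.

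Libraries held 47064061 to 107515565 counts. Ptpn2 RNA did not fall in islets labelled bKO. It was at 111, 84.2 and 107 CPM (counts scaled to the size of the library) in bKO islets with cytokines, against 88.9, 90.4 and 78.3 CPM in control islets with cytokines. Untreated, it was at 36.7, 33.8 and 35.5 CPM in bKO islets and 30.3, 31.5 and 31.4 CPM in control islets. The log2 differences, bKO minus control, were 0.23 (adjusted p = 0.26) and 0.19 (adjusted p = 0.989), by the edgeR test described below. Counts over a whole gene do not show whether an exon was removed, so the genotype is used as a label. Replicate 2 of the bKO islets with cytokines stood apart on the second principal component (4.25% of the variance). Its stellate and pericyte markers summed to 8160 CPM, against 3304 and 3121 CPM in replicates 1 and 3 of its group, and its beta cell markers to 90117 CPM, against 162537 and 147688 CPM. Results that rest on this library are given with and without it.

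The 4 promoters shown are those of the kinase and the receptor chain with the largest cytokine responses (Jak2, Ifngr2) and of the 2 chains of the type I receptor, which share a stretch of chromosome 16 but responded to different degrees. Each runs 5′ to 3′ on the gene's strand from 250 bases before the transcript start, for 300 bases in all, as RefSeq gives it on GRCm38.p6. Capitals mark the letters TTCNNNGAA of a gamma-activated site, an element that STAT dimers bind.
Jak2: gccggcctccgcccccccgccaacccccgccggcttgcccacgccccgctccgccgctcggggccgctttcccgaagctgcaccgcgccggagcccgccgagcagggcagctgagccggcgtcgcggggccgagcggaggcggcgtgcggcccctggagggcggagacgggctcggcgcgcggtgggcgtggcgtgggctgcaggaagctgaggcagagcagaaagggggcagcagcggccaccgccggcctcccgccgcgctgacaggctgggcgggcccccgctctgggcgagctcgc
Ifngr2: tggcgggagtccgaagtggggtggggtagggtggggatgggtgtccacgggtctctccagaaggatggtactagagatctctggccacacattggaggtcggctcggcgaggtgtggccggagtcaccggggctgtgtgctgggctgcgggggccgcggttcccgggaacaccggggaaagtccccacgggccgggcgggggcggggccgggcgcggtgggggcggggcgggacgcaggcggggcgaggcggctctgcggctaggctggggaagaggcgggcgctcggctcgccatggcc
Ifnar2: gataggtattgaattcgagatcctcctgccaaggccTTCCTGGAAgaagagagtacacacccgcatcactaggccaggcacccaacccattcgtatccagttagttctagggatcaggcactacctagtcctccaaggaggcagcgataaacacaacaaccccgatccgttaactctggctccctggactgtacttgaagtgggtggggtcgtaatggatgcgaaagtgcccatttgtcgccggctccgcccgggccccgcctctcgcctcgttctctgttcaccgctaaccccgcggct
Ifnar1: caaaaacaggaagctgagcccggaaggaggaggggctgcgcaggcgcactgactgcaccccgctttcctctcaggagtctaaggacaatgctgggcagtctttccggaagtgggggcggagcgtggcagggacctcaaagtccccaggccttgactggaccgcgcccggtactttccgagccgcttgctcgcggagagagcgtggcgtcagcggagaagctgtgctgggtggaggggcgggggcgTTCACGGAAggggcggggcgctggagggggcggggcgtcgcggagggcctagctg
The Jak2 window is chr19:29251553-29251852, and the other windows are chr16:91546809-91547108 for Ifngr2, chr16:91372533-91372832 for Ifnar2 and chr16:91484965-91485264 for Ifnar1, all on the plus strand. The Jak2 window is 81% G and C and the Ifngr2 window 74.3%, against 57% for Ifnar2. A gamma-activated site by these letters, which read the same on both strands, was found in Ifnar2 (TTCCTGGAA, first base 214 bases before the start) and Ifnar1 (TTCACGGAA, 5 bases before the start). None was found in the windows of Jak2 and Ifngr2, nor in those of Jak1, Jak3, Tyk2 and Ifngr1. An interferon-stimulated response element, searched on both strands as GAAA, any 2 bases and GAAA again, was in none of the 8 windows, so no motif overlapped another, and Il10rb had no promoter entry to search. Over 32851 mouse promoters of the same length, 8.30% held the first motif and 3.44% the second.

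The levels of the 9 genes were compared as CPM per kilobase of merged exons, which takes out gene length. Jak1, the kinase shared by all interferon receptors, was highest in every group, at 48.6 ± 1.5 in bKO islets with cytokines, 49 ± 2.7 in control islets with cytokines, 32.3 ± 0.32 in untreated bKO islets and 30.5 ± 1.0 in untreated control islets (CPM per kilobase, SD, n = 3 each). Its libraries did not overlap those of the next gene in any group. With cytokines Jak2 followed in both genotypes, apart from Jak1 and from Ifngr2, the next by mean. In bKO islets Ifngr1 (24.8 CPM per kilobase, 18.2 to 32.9) overlapped both Ifngr2 (27.5, 27.1 to 28) and Ifnar2 (17.9, 17.1 to 18.8), which did not overlap each other. In control islets with cytokines Ifngr2 (25.6) stood apart from Ifngr1 (18.9), while Ifngr1, Ifnar2 (16.5) and Jak3 (15.3) overlapped in turn.
Without cytokines the upper ranks were closer together. In untreated bKO islets Jak3 (13.6) overlapped Ifngr1 (11.9), and Jak2 (9.97) came next, apart from both neighbours. In untreated control islets Ifngr1 (12.1), Jak3 and Jak2 (9.89) overlapped in turn. The bottom of the order exchanged its 2 members. Tyk2, the kinase of Ifnar1 and Il10rb, was lowest with cytokines, at 4.0 ± 0.36 in bKO islets and 4.38 ± 0.14 in control islets. Il10rb was lowest in untreated islets, at 3.46 ± 0.30 in bKO islets and 3.2 ± 0.16 in control islets (CPM per kilobase, SD, n = 3 each). In all 4 groups those 2 genes did not overlap each other.

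**Figure D1:**
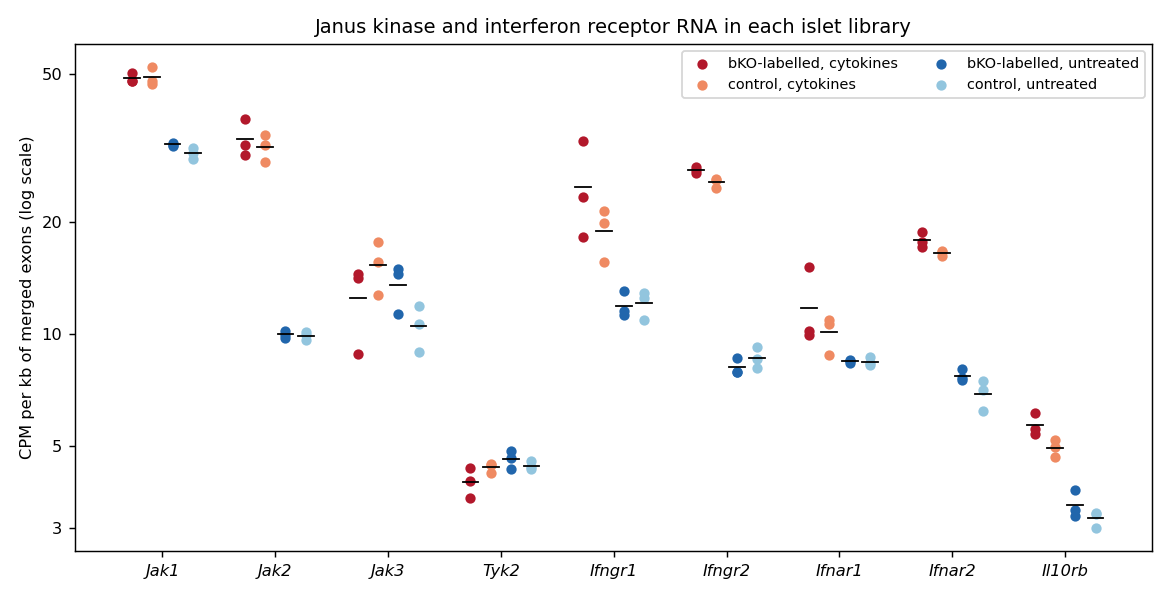
Level of each gene in each library, as CPM per kilobase of merged exons on a log axis, with 4 groups of 3 libraries side by side and a bar at each group mean. Jak2, Ifngr2 and Ifnar2 form separate bands with and without cytokines, and Tyk2 stays between 3.63 and 4.84 in all 12 libraries. Jak3 overlaps across treatments in bKO islets but not in control islets.

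Cytokines raised most of these genes in both genotypes. In bKO islets 7 of 9 rose and 1 fell, beside 62.4% of all tested genes called (28.8% higher, 33.6% lower). In control islets 7 of 9 rose and 0 fell, beside 60.6% called (26.8% higher, 33.9% lower). The median log2 difference of the 9 genes was 0.71 in bKO and 0.65 in control islets, against -0.06 and -0.10 over all genes. With library totals alone, which shift the median of all genes by -0.23, all genes split into 4000 higher and 8693 lower in bKO islets and 3737 higher and 8998 lower in control islets, and the 9 genes into 6 higher and 1 lower and into 5 higher and 1 lower. Tests throughout are edgeR quasi-likelihood tests with Benjamini-Hochberg adjustment over all 19800 genes. In bulk RNA, more cells of a type and more RNA per cell cannot be told apart. Macrophage markers moved with these genes: 14 of 15 were higher in each genotype, and they summed to 660 to 866 CPM in bKO islets with cytokines and 623 to 743 CPM in control islets with cytokines, against 219 to 299 and 225 to 275 CPM in the untreated bKO and control islets. Endothelial markers went the other way, with 12 of 13 lower in bKO and 13 of 13 lower in control islets. Ductal markers summed to 5292 to 6017 CPM in bKO and 5077 to 5416 CPM in control islets with cytokines, against 2144 to 2735 and 2610 to 2976 CPM in the untreated ones, with 5 of 9 higher in each genotype and 0 lower in bKO but 3 lower in control islets. Markers of endocrine and acinar cells fell in part: in bKO islets 7 of 10 beta, 6 of 6 alpha, 3 of 4 delta and 6 of 12 acinar markers, and in control islets 7 of 10, 5 of 6, 4 of 4 and 11 of 12. The summed beta markers did not fall in step, at 162537, 90117 and 147688 CPM in bKO and 144688 to 177722 CPM in control islets with cytokines. Untreated, they summed to 124581 to 136022 and 125277 to 137142 CPM. Of 9 stellate and pericyte markers 4 were higher and 1 lower in bKO islets (1 and 2 without replicate 2), and 1 and 1 in control islets. The part of these cell types in the results was not tested.

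Among the kinases, Jak2, the kinase of Ifngr2 and of growth hormone, prolactin and erythropoietin receptors, responded most. It was at 153, 190 and 162 CPM in bKO islets with cytokines, against 51.4, 50 and 49.1 CPM without. In control islets it was at 173, 145 and 162 CPM with cytokines, against 50, 48.5 and 50.7 CPM without. Every treated library was above every untreated one, and the rise was 3.35-fold in bKO islets (log2 1.75, SE 0.088, adjusted p = 2.6e-08) and 3.21-fold in control islets (log2 1.68, SE 0.088, adjusted p = 3.6e-08).
Jak1 rose less from a higher level. It was at 363, 345 and 345 CPM in bKO islets with cytokines, against 233, 231 and 236 CPM without, and at 377, 346 and 340 CPM in control islets with cytokines, against 228, 213 and 221 CPM without. The groups did not overlap, and the log2 differences were 0.59 in bKO islets (SE 0.062, adjusted p = 7.9e-06) and 0.68 in control islets (SE 0.062, adjusted p = 2.8e-06).

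Jak3, the kinase of receptors with the common gamma chain and best known from lymphocytes, varied widely between libraries of a group. In bKO islets it was at 75.4, 47.4 and 77.8 CPM with cytokines, against 79.6, 77.6 and 60.6 CPM without. The lowest of these 6 values was that of replicate 2 with cytokines, the groups overlapped, and the log2 difference of -0.12 did not pass (SE 0.19, adjusted p = 0.605). Without that library it was 0.14. In control islets Jak3 was at 68.1, 83.4 and 94.4 CPM with cytokines, against 47.9, 63.6 and 56.6 CPM without, and rose by log2 0.55 (SE 0.19, adjusted p = 0.0267). That call was lost when 1 of 4 control libraries was left out (untreated replicate 1 or 3, treated replicate 2 or 3), with adjusted p between 0.0607 and 0.103, in a range from 0.00172 to 0.163 over 20 alternatives. Of 10 T and NK cell markers, only 2 had enough reads to be tested, and 1 of them rose and 1 fell in each genotype. These 2 summed to 8.58 to 15.9 CPM in bKO and 7.26 to 10.7 CPM in control islets with cytokines. In the untreated ones they summed to 4.53 to 5.31 and 3.38 to 4.49 CPM. The other 8, among them Cd3d, Cd3e and Cd3g, are not in these sums, though none was at 0 in every library. The part of T and NK cells in the level of Jak3 was not tested. Of the exon length of Jak3, 7.55% is shared with Insl3, which lies on the same strand and had 10 to 116 counts a library.

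Tyk2 hardly moved. It was at 24.9, 27.6 and 29.9 CPM in bKO islets with cytokines, against 31.9, 33.2 and 29.8 CPM without, and the 2 groups overlapped. The log2 difference was -0.20 (SE 0.077, adjusted p = 0.0363), and it missed the threshold without replicate 1 or 2 of either bKO group (adjusted p from 0.0724 to 0.149, in a range from 8.7e-04 to 0.162 over 20 alternatives). In control islets Tyk2 was at 29.0, 30.7 and 30.6 CPM with cytokines and 29.7, 30.2 and 31.2 CPM without, a log2 difference of -0.01 with a 95% interval from -0.18 to 0.15. Of the exon length of Tyk2, 8.07% is shared with an antisense gene, 1700084C06Rik, which had 11 to 47 counts a library.

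**Figure D2:**
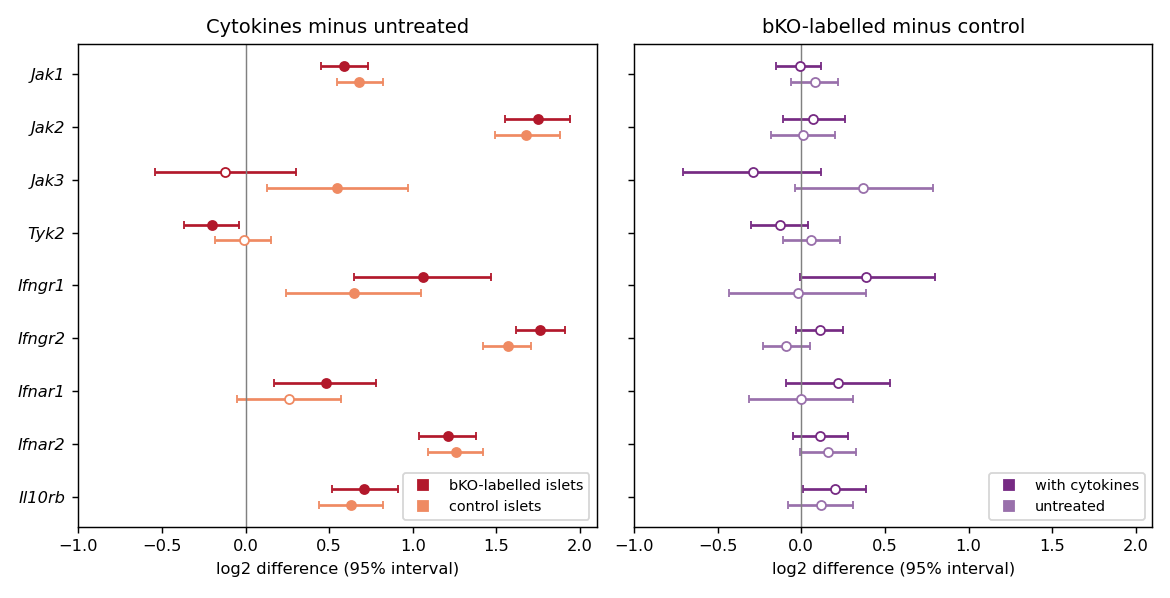
Log2 difference with its 95% interval for each gene, cytokines minus untreated on the left and bKO-labelled minus control on the right; filled points passed at adjusted p under 0.05. Jak2, Ifngr2 and Ifnar2 lie above 1 in both genotypes for the cytokine comparison, and no point is filled on the right.

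Both chains of the interferon gamma receptor rose, the second chain more. Ifngr2 was at 106, 102 and 104 CPM in bKO islets with cytokines, against 32.4, 29.7 and 29.7 CPM without, and at 98.5, 97.4 and 92.9 CPM in control islets with cytokines, against 30.6, 32.2 and 34.7 CPM without. The libraries of a group lay close together, and the rise was 3.39-fold in bKO islets (log2 1.76, SE 0.066, adjusted p = 2.7e-09) and 2.96-fold in control islets (log2 1.57, SE 0.066, adjusted p = 6.1e-09). Ifngr1, the ligand-binding chain, was at 51.8, 93.8 and 66.4 CPM in bKO islets with cytokines, against 37.0, 32.9 and 31.9 CPM without. In control islets it was at 56.2, 44.5 and 61.1 CPM with cytokines, against 30.9, 35.5 and 36.7 CPM without. Groups did not overlap in either genotype, although the treated libraries were spread widely. Ifngr1 rose by log2 1.06 in bKO islets (SE 0.19, adjusted p = 4.3e-04) and by 0.65 in control islets (SE 0.19, adjusted p = 0.0101). The value for bKO islets was 0.86 without replicate 2, which held 93.8 CPM.

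Of the type I receptor, Ifnar2 rose by more than 2-fold and Ifnar1 by much less. Ifnar2 was at 62.6, 58.8 and 56.9 CPM in bKO islets with cytokines, against 26.8, 25.0 and 25.3 CPM without, and at 55.7, 53.8 and 55.4 CPM in control islets with cytokines, against 20.6, 23.5 and 24.9 CPM without. The groups were far apart, with log2 differences of 1.21 in bKO islets (SE 0.076, adjusted p = 1.5e-07) and 1.26 in control islets (SE 0.077, adjusted p = 1.2e-07). Ifnar1 was at 59.0, 89.6 and 60.4 CPM in bKO islets with cytokines, against 50.3, 50.4 and 49.6 CPM without, where replicate 2 was again the highest. In control islets it was at 64.7, 52.0 and 63.0 CPM with cytokines, against 49.1, 49.6 and 51.3 CPM without. Groups did not overlap. Ifnar1 rose by log2 0.48 in bKO islets (SE 0.14, adjusted p = 0.0115), or 0.31 without replicate 2, while the 0.26 of control islets did not pass (SE 0.14, adjusted p = 0.129). Fitted without replicate 2 of the treated bKO islets, Ifnar1 was called in control islets (log2 0.33, adjusted p = 9.7e-04). This was the lowest adjusted p of 20 alternatives that ranged up to 0.874. Leaving that library out changes the shared spread and also the scaling, which shifted the median of all genes in control islets by 0.07.

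Il10rb, whose partners in mice include Il10ra, Ifnlr1 and Il22ra1, rose by log2 0.71 in bKO islets (SE 0.088, adjusted p = 2.7e-05) and by 0.63 in control islets (SE 0.088, adjusted p = 8.0e-05). It was at 20.5, 23.3 and 21.1 CPM in bKO islets with cytokines, against 14.5, 12.8 and 12.3 CPM without, and at 18.9, 17.8 and 19.8 CPM in control islets with cytokines, against 11.5, 12.6 and 12.5 CPM without. The groups did not overlap. These partner chains are named for their pairing with Il10rb, after their values were seen. Il10ra rose by log2 1.32 in bKO islets and 1.39 in control islets (adjusted p = 6.7e-05 and 5.0e-05). The chain for lambda interferons, Ifnlr1, passed in control islets (log2 0.65, adjusted p = 0.0332) and not in bKO islets (log2 0.59, adjusted p = 0.0506). With library totals alone it was at log2 0.42 in control islets and did not pass there either. Il22ra1 passed in bKO islets (log2 2.94, SE 0.47, adjusted p = 2.2e-04, mean 2.7 against 0.353 CPM) and not in control islets (log2 0.92, SE 0.44, adjusted p = 0.0906, mean 1.36 against 0.717 CPM), but the difference between these responses did not pass (log2 2.02, SE 0.64, adjusted p = 0.361). A read-through gene annotated across Ifnar2 and Il10rb, Gm21970, shares 9.46% and 14.9% of their exon lengths and had 0 counts in all 12 libraries.

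The unequal rises changed the ratio of reads between the chains of each receptor and among the kinases. Bulk RNA does not show whether the reads of these genes came from the same cells. Per kilobase, Ifngr2 reads stood at 1.14 times Ifngr1 reads in bKO islets with cytokines and 1.36 times in control islets with cytokines, against 0.682 and 0.715 times in the untreated bKO and control islets (ratios from mean log2 values). Single bKO libraries with cytokines were at 1.54, 0.823 and 1.18 times, and control libraries with cytokines at 1.32, 1.66 and 1.15 times. Untreated libraries lay between 0.661 and 0.747 times, below every treated one. For the type I receptor, Ifnar2 stood at 1.55 and 1.64 times Ifnar1 in bKO and control islets with cytokines, against 0.915 and 0.819 times in untreated ones. Here too the treated libraries (1.17 to 1.89 times) lay above all the untreated ones (0.75 to 0.952 times). The Jak2 share of the summed reads per kilobase of the 4 kinases was 33.9 ± 3.9% in bKO and 31.6 ± 1.7% in control islets with cytokines, against 16.5 ± 0.30% and 17.9 ± 0.43% in untreated bKO and control islets (SD, n = 3 each). Over the same groups the share of Jak1 went the other way, at 49.3% and 48.8% with cytokines, against 53.5% and 55.2% without.
Averaged over the genotypes, cytokines shifted the log2 ratio by 0.837 for the interferon gamma receptor (1.79-fold) and by 0.884 for the type I receptor (1.85-fold), and the Jak2 share by 15.6 percentage points. Each gave p = 0.005 in an exact two-sided permutation test within genotype over 400 arrangements, the smallest p this design can give, and 0.005 after adjustment over the 3 measures. The rises of Jak2 and Ifngr2 were already known when these measures were set, so the tests are no independent support for them. A ratio within a library does not depend on scaling, and it shows unequal change only.

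**Figure D3:**
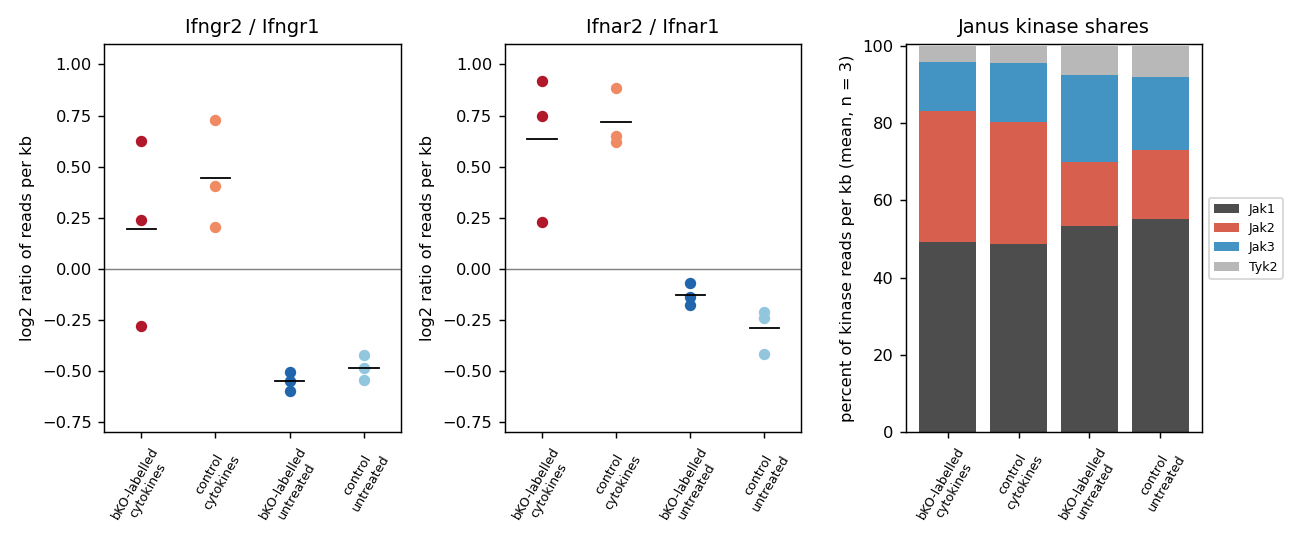
Left and middle, log2 ratio of reads per kilobase of Ifngr2 to Ifngr1 and of Ifnar2 to Ifnar1 in each library, with group means as bars; right, mean share of each Janus kinase in the summed reads per kilobase of the 4 kinases (n = 3 a group). All treated libraries lie above all untreated ones in both ratios, and Jak2 fills 33.9% and 31.6% of the bars with cytokines, against 16.5% and 17.9% without.

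Between genotypes none of the 9 genes was called. With cytokines 0 of 9 differed between bKO and control islets, beside 0.232% of all genes called, and 1 of 9 had an unadjusted p under 0.05, as did 3530 of the 19800 genes. Untreated, 0 of 9 differed, beside 0.0758% of all genes, and 0 had an unadjusted p under 0.05, against 1099 of all genes. DESeq2 and limma-voom called 0 of 9 in both comparisons as well. The gene with the smallest p was Il10rb with cytokines, whose bKO libraries (20.5 to 23.3 CPM) lay above its control libraries (17.8 to 19.8 CPM) by log2 0.20 (SE 0.087, adjusted p = 0.263). Without replicate 2 of the treated bKO islets, the highest of them, it was 0.13 (adjusted p = 0.592). The largest difference with cytokines was that of Ifngr1, higher in bKO islets by log2 0.39 (adjusted p = 0.293), or 0.12 without that replicate 2. Ifnar1 was higher by 0.22 (adjusted p = 0.409), or at -0.02 without it. With cytokines Ifngr2 and Ifnar2 were higher in bKO islets by log2 0.11 each (adjusted p = 0.376 and 0.426), and Jak2 by 0.07. Jak1 (-0.01), Jak3 (-0.29) and Tyk2 (-0.13) were lower there, and none of these passed. Untreated, the largest difference was that of Jak3, higher in bKO islets by log2 0.37 (adjusted p = 0.983). Jak1, Ifnar2 and Il10rb were higher there by log2 0.08, 0.16 and 0.12 (adjusted p = 0.932 for Ifnar2). Ifngr1 (-0.02) and Ifngr2 (-0.09) were lower, and none of these passed. The widest interval was that of Jak3, from -0.71 to 0.12 with cytokines and from -0.04 to 0.79 without. For Jak1 and Jak2 the intervals lay within -0.18 and 0.26 on the log2 scale in both comparisons, which bounds a difference at that size and does not show that there was none.

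The responses of the 2 genotypes were compared directly as well. Of the 9 genes 0 were called, as were 0.00% of all genes, while 1 of the 9 (Jak3) and 2162 of all genes had an unadjusted p under 0.05, and DESeq2 and limma-voom called 0 of the 9. Of all genes DESeq2 called 181 and limma-voom 0. The response of Jak3 in bKO islets minus that in control islets was log2 -0.67 (SE 0.27, 95% interval -1.26 to -0.08, adjusted p = 0.419, from 0.231 to 0.711 over 19 alternatives), or -0.48 without replicate 2 of the treated bKO islets. For Ifngr2 the difference was 0.20 (SE 0.091, adjusted p = 0.466), with bKO islets responding more. The values were 0.41 for Ifngr1 and 0.22 for Ifnar1, and without replicate 2 they were 0.15 and -0.02. The other genes lay between -0.19 (Tyk2) and 0.09 (Il10rb).

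The kinase genes lie on 4 chromosomes of GRCm38. Jak1 (ENSMUSG00000028530) is at chr4:101152367-101265282 on the minus strand and Jak2 (ENSMUSG00000024789) at chr19:29251828-29313080 on the plus strand. Jak3 (ENSMUSG00000031805) is at chr8:71676296-71690575 on the plus strand and Tyk2 (ENSMUSG00000032175) at chr9:21104068-21131243 on the minus strand. Of the receptor genes Ifngr1 (ENSMUSG00000020009) stands alone, at chr10:19591949-19610229 on the plus strand. Those on chromosome 16, all on the plus strand, are Ifnar2 (ENSMUSG00000022971, chr16:91372783-91405589), Il10rb (ENSMUSG00000022969, chr16:91406164-91425834), Ifnar1 (ENSMUSG00000022967, chr16:91485238-91507441) and Ifngr2 (ENSMUSG00000022965, chr16:91547072-91565623).

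Genes next to the 9 on the chromosome did not move as a block. Within 250 kb of them lay 61 other tested protein-coding genes, of which 19 were higher and 18 lower with cytokines in bKO islets (median log2 difference 0.06) and 25 higher and 16 lower in control islets (0.04), against -0.06 and -0.10 over all genes. Of all genes 28.8% were higher and 33.6% lower in bKO islets, and 26.8% higher and 33.9% lower in control islets. With library totals alone the neighbours split into 15 higher and 24 lower in bKO islets and 15 higher and 21 lower in control islets, and without replicate 2 of the treated bKO islets into 25 higher and 16 lower and into 28 higher and 15 lower. Ifnar2, Il10rb, Ifnar1 and Ifngr2 stand in this order on the plus strand of mouse chromosome 16, over 193 kb. Il10rb begins 33.4 kb after the start of Ifnar2, Ifnar1 112.5 kb and Ifngr2 174.3 kb. In bKO islets all 4 rose, with log2 differences of 1.21, 0.71, 0.48 and 1.76 in that order. The 7 tested neighbours lay beyond Ifngr2. Among them Donson, a DNA replication factor (0.40 in bKO and 0.36 in control islets), and Cryzl1 (0.53 and 0.60) rose, and Dnajc28 (-1.58 and -2.08) and the splicing factor gene Son (-0.60 and -0.50) fell. Tmem50b (0.16 and 0.14), Gart (-0.09 and -0.10) and Itsn1 (0.00 and -0.10) did not pass. With library totals alone Donson was at 0.17 and 0.13 and no longer passed.
Jak2 had the checkpoint ligand genes on its 3′ side. Cd274, which encodes PD-L1, lies 54.4 kb beyond the end of Jak2 and was at 658 CPM in bKO islets with cytokines, against 23.0 CPM without, a log2 difference of 4.84 (SE 0.11), and in control islets at 865 against 21.7 CPM, a log2 difference of 5.32 (SE 0.11). Pdcd1lg2, which encodes PD-L2, rose by log2 2.55 in bKO islets and 2.44 in control islets from very low levels. Insl6, between Jak2 and Cd274, rose by 1.28 in bKO and 1.3 in control islets, and lost its call in bKO islets without replicate 2. Plgrkt, which lies 35.5 kb beyond Jak2, rose in control islets (0.42) and was at -0.01 in bKO islets, and Ric1 did not pass (0.06 in bKO and 0.04 in control islets). On the 5′ side, Cdc37l1, 225 kb away, fell (-0.48 in bKO and -0.43 in control islets), and Rcl1 (0.27 in bKO and 0.04 in control islets) and Ak3 (0.14 and -0.03) did not pass. Tyk2, which hardly moved, lies 75.3 kb from Icam1, an adhesion molecule of inflamed tissue that rose by log2 5.62 in bKO islets (SE 0.13) and 5.61 in control islets (SE 0.13). Bst2, an antiviral surface protein, lies 139 kb from Jak3 and rose by log2 3.71 and 3.23.

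**Figure D4:**
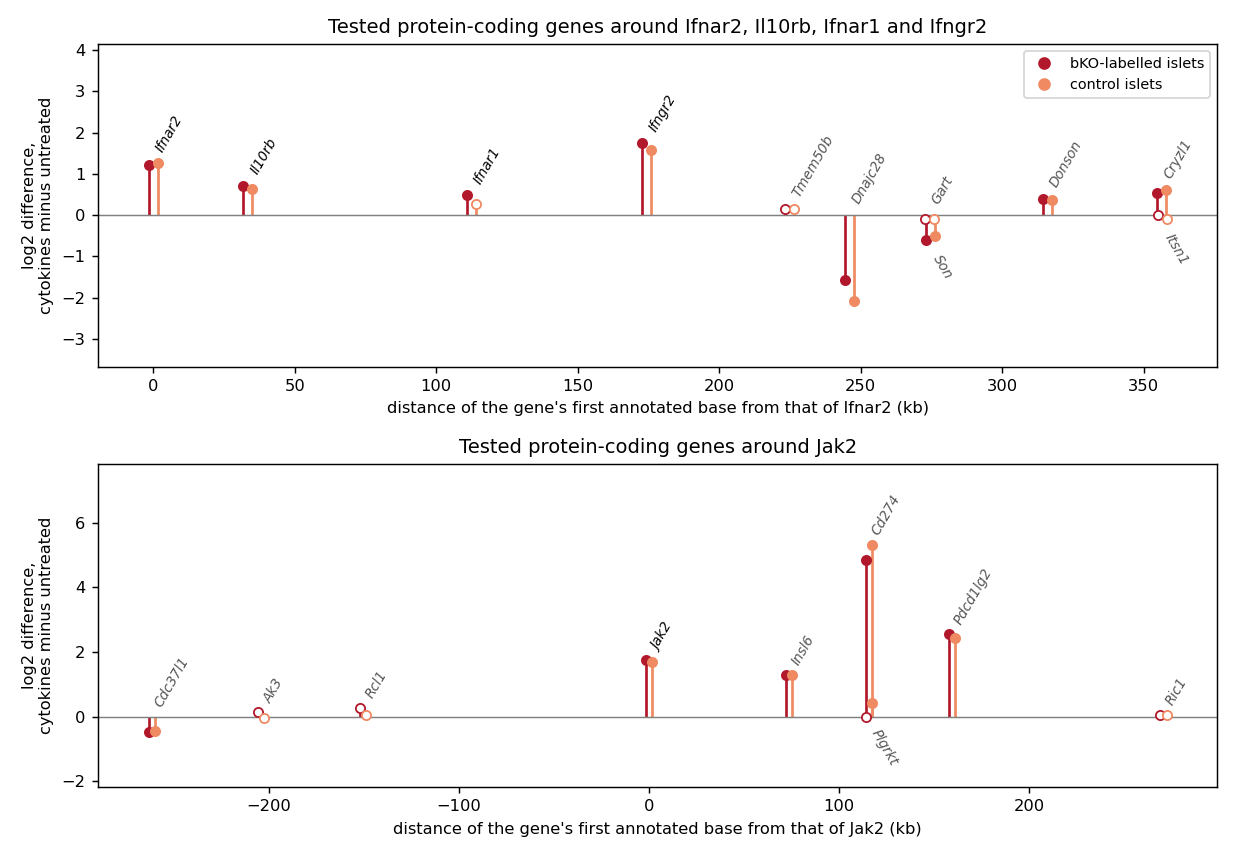
Log2 difference, cytokines minus untreated, of each tested protein-coding gene around the chromosome 16 receptor genes (top) and around Jak2 (bottom), by the distance in kb of its first annotated base from that of Ifnar2 or Jak2; filled points passed at adjusted p under 0.05. In bKO islets the 4 receptor genes are higher with cytokines while Dnajc28 and Son beyond them are lower, and Cd274 reaches 4.84 in bKO and 5.32 in control islets beside Jak2.

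The rest of the pathway was read from lists of genes by role. Of the 7 STAT genes, 4 rose in each genotype, and 1 fell in bKO islets and 0 in control islets. Of all genes 62.4% were called in bKO islets (28.8% higher, 33.6% lower) and 60.6% in control islets (26.8% higher, 33.9% lower). Counted in either direction, the STAT counts were near these shares. Stat2, a STAT of the type I interferon response, rose by log2 2.14 in bKO islets (mean 236 against 53.3 CPM) and 3.24 in control islets (mean 386 against 41.0 CPM). Irf9, its DNA-binding partner in that response and named after its values were seen, rose by 1.66 and 2.36. The differences between those responses did not pass for Stat2 (log2 -1.09, SE 0.25, adjusted p = 0.251) or Irf9 (-0.70, SE 0.16, adjusted p = 0.251). Stat3 and Stat6 also rose (0.87 and 0.61 in bKO islets). The gene that fell in bKO islets, named after its value was seen, was Stat5b (-0.30, adjusted p = 0.00859). It did not pass without replicate 2.
Of 18 partners and feedback genes, 9 rose and 3 fell in bKO islets and 9 rose and 2 fell in control islets. Counted in either direction, this was near the share called among all genes (62.4% in bKO and 60.6% in control islets). Irf1, an interferon-induced transcription factor, rose by log2 3.51 in bKO and 3.74 in control islets. The inhibitors and phosphatases in the list went different ways. Socs1, which blocks Janus kinases, rose by 5.29 and 5.20, and Usp18, which binds Ifnar2 and dampens the type I receptor, by 3.13 and 3.23. Nmi, an interferon-induced protein that binds STATs, rose by 1.98 and 1.89. Of the phosphatases, Ptpn2 rose by 1.51 in bKO and 1.47 in control islets. Ptpn1 (0.41 and 0.74) and Ptprc (1.00 and 0.76), named after their values were seen, rose too. With library totals alone Ptpn1 was at 0.17 in bKO islets and did not pass. Also named after their values were seen, Socs2 fell by 0.51 in bKO islets and 0.98 in control islets, while Socs3 (-0.05 and 0.27), Cish (0.16 and 0.03), Ptpn6 (0.01 and 0.14), Ptpn11 (0.01 and 0.07) and Pias1 (-0.08 and 0.06) did not pass. With library totals alone this list had 8 higher and 7 lower in bKO islets, and without replicate 2 it had 12 higher and 1 lower. No gene of these or the following lists was called between genotypes.

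Other receptors that signal through Janus kinases went in both directions. Of 36 listed, 31 were tested, and 22 rose and 4 fell in bKO islets (19 and 4 without replicate 2), while 19 rose and 5 fell in control islets. Among all genes, 28.8% rose and 33.6% fell in bKO islets, and 26.8% and 33.9% in control islets. The median log2 differences were 1.09 and 0.78, in a range from -2.99 (Prlr) to 4.31 (Il12rb1) in bKO islets and from -2.62 to 4.01 in control islets. Il12rb1, of the IL-12 receptor, rose by log2 4.31 in bKO islets (mean 8.0 against 0.40 CPM) and 4.01 in control islets (7.92 against 0.49 CPM). Il15ra rose by 1.63 and 1.89. Il6ra, the IL-6 binding chain, fell by 1.72 in bKO islets and 1.71 in control islets, and Prlr, the prolactin receptor that uses Jak2, fell by 2.99 and 2.62. Il2rg, the common gamma chain that carries Jak3, is named after its values were seen and rose by 3.09 and 3.00, with means of 11.7 and 11.5 CPM with cytokines against 1.38 and 1.44 CPM without.
The receptors of the other 2 cytokines were not alike. Tnfrsf1a (log2 1.42 in bKO and 1.44 in control islets) and Tnfrsf1b (1.91 and 1.61) rose, whereas Il1r1, the signalling receptor of IL-1, fell by 2.2 in bKO islets (mean 137 against 627 CPM) and 2.14 in control islets (mean 155 against 685 CPM).

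**Figure D5:**
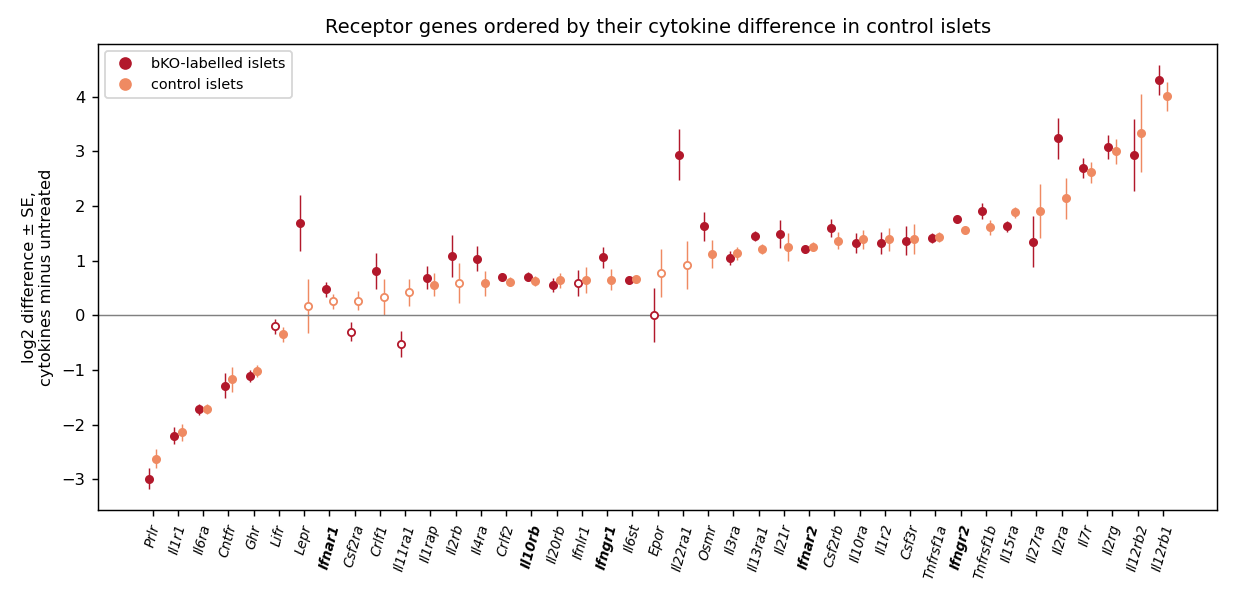
Log2 difference ± SE, cytokines minus untreated, of the 5 interferon and IL-10 receptor chains (bold) and the other tested cytokine receptors, ordered by the value in control islets; filled points passed at adjusted p under 0.05. Ifngr2 and Ifnar2 lie in the upper part of the order, Ifnar1 in the lower part, and Prlr and Il1r1 are the lowest.

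Of 15 interferon and IL-10 family genes, some of which signal through other receptors, 4 had enough reads to be tested. All 4 rose in both genotypes, beside 28.8% of all genes higher in bKO and 26.8% in control islets. Ifnl2 and Ifnl3 passed the read filter only through the treated libraries. Il19 had 15 and 20 counts in untreated bKO and control islets, against 127 and 95 with cytokines. A rise among the tested genes was thus largely fixed by the filter and is no result about the list. Ifnl2 had 228 counts over the 3 bKO libraries with cytokines and 0 over the 3 untreated ones, which is at least 106-fold higher against a floor of 3 counts over the group. In control islets it had 326 and 0 counts, at least 109-fold higher. Ifnl3 had 273 and 0 counts in bKO islets (at least 127-fold higher) and 454 and 0 counts in control islets (at least 152-fold higher). These lambda interferon genes are near-identical copies, so how reads were split between them is uncertain. The products of Il19 and Il24 signal through receptors that hold none of the 5 receptor chains described here. Il19 rose by log2 3.47 in bKO and 2.41 in control islets, and Il24 by 2.48 and 1.3, all from means under 1 CPM. Ifnb1 had 16 counts in bKO and 50 in control islets with cytokines and 0 in both untreated groups, too few to be tested. Ifng had 1 count in bKO islets with cytokines and 0 counts in the 3 other groups, so interferon gamma RNA was not detectable beyond that read at this depth.

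Across the 12 libraries, the genes most like 8 of the 9 were found among 9684 genes with a mean of at least 10 CPM, by the Pearson correlation of log2 CPM. These values describe libraries that share 1 treatment contrast. Jak2 was most like Tnfaip2 (r = 0.999), Neurl3 and Samhd1. Ifngr2 was most like the chemokines Ccl2 and Ccl5 and Lgals9 (r = 0.998 each). Ifnar2 was most like the class I gene H2-Q4 (r = 0.997), Casp4 and Ttc39c. For the other receptor chains the lists differed. Ifngr1 was most like Plaur, Cd14 and Osmr (r = 0.991, 0.990 and 0.989), of which Cd14 is in the macrophage marker list, and Ifnar1 most like Myof, Rest and Notch2 (r = 0.994 each). Il10rb was most like Cebpb, Capns1 and Xdh (r = 0.989 each). Jak3 and Tyk2 had no close match, with Ap1g2 and Entr1 (r = 0.913 each) and Ssh3 (r = 0.905) for Jak3, and Polg, Lig3 and Dalrd3 (r = 0.875, 0.854 and 0.835) for Tyk2. Among the 9, Ifngr2 and Ifnar2 correlated at 0.99 and Ifngr1 and Ifnar1 at 0.94, whereas Ifngr2 and Ifngr1 correlated at 0.87 and Ifnar2 and Ifnar1 at 0.73.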

How the data were processed

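The data were RNA-seq libraries of mouse islets, 3 in each of 4 groups taken from the sample titles. The authors deposited raw read counts per gene, whole numbers for 55536 genes. Tools named in the submitters' processing notes are STAR 2.5.2a, featureCounts 1.6.2, cutadapt 1.16, FastQC 0.11.7 and DESeq2 1.30.0, with the GRCm38 genome. No annotation release or strand setting is named there, which leaves the split of reads between overlapping genes uncertain. No per-sample column was left unused in the count table.

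From the deposited counts, genes were kept by filterByExpr (19800), TMM-scaled and fitted over 12 libraries with 4 group coefficients by edgeR's quasi-likelihood method (edgeR 4.0.16, R 4.3.3), with Benjamini-Hochberg adjustment at 0.05. CPM were computed from the deposited counts and the scaled library sizes. Exon lengths and positions are from GENCODE M21, and promoters of 8 of the 9 genes from RefSeq. Libraries held 47064061 to 57223340 (bKO, cytokines), 52930884 to 107515565 (control, cytokines), 59411699 to 62955944 (bKO, untreated) and 54460375 to 77582270 counts (control, untreated). No pair of libraries of the same group agreed within sampling noise (chi-square per degree of freedom of 15 or more). Scripts were tested on simulated counts.

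The genes and lists were chosen with earlier results of these data known. Named beside the 9 genes and Ptpn2 are their 3 most alike genes, protein-coding neighbours within 250 kb and from each list the 4 genes, or fewer, that ranked first by adjusted p in control islets. Some genes this rule names are not reported here. Results were recomputed with size factors from DESeq2, library totals, no filter, a filter of 1 CPM in 3 libraries, the compared groups only, a replicate block, DESeq2 1.42.0, limma-voom (limma 3.58.1), an adjusted p under 0.01, and each library left out in turn.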

Additional observations from a re-analysis of the deposited data

How the results depend on the processing

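The counts of genes called higher kept within 1.5 times their value under every alternative run: from 5 to 8 in control and 6 to 7 in bKO islets for the settings, and from 6 to 8 and 7 to 7 with 1 library left out. The fall of Tyk2 did not hold. The count of genes called lower in bKO islets was 0 instead of 1 with DESeq2's size factors, no filter, the compared groups only, the replicate block, DESeq2 and an adjusted p under 0.01, and ranged from 0 to 1 with 1 library left out. In control islets it was 1 instead of 0 with library totals, where Tyk2 was called at log2 -0.24. Library totals shift the median of all genes by -0.23 in both genotypes. Relative to that median, that of the 9 genes was 0.75 in control islets both with library totals and with DESeq2's size factors. With library totals Jak3 (0.32) and Ifngr1 (0.42) in control islets and Ifnar1 (0.25) in bKO islets lost their calls. With DESeq2's size factors, with DESeq2 and with the compared groups only, Ifnar1 was called in control islets (0.35, 0.34 and 0.32).

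Signs turned only for differences that were not called. Tyk2 in control islets was at 0.08 with DESeq2's size factors, 0.05 with the compared groups only and 0.07 with DESeq2, and at -0.03 to 0.06 with 1 library left out. With 1 library left out, Jak3 in bKO islets ranged from -0.24 to 0.14. Between untreated genotypes, Jak2 was at -0.01 and Ifnar1 at -0.02 without a filter. With 1 library left out, Jak2 ranged from -0.01 to 0.03, Ifngr1 from -0.09 to 0.03 and Ifnar1 from -0.01 to 0.02. Between genotypes with cytokines, Jak1 was at 0.01 with library totals and 0.00066 with the compared groups only. With 1 library left out, Jak1 ranged from -0.04 to 0.03, Jak2 from -0.04 to 0.14 and Ifnar1 from -0.02 to 0.32. For the difference between responses the ranges were -0.04 to 0.13 for Jak2, -0.02 to 0.32 for Ifnar1 and -0.11 to 0.02 for Ifnar2. The cause was not tested in any of these cases.

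The shift of the Ifngr2 to Ifngr1 ratio ranged from 0.729 to 0.956 with 1 library left out, that of Ifnar2 to Ifnar1 from 0.812 to 0.985 and that of the Jak2 share from 14.5 to 16.3 percentage points.

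Same-numbered treated and untreated libraries did not deviate together (correlations from -0.103 to 0.096), so the numbers were not taken as a pairing. With the replicate block, Tyk2 in bKO islets was at -0.21 (adjusted p = 0.0785), 11634 instead of 12358 of all genes were called in bKO islets and 11347 instead of 12002 in control islets, and the 3 ratio measures gave p = 0.0312 in an exact sign-flip test over 6 pairs. The block holds numbers within a genotype, so it was not run for the comparisons between genotypes.

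Of all genes, 15 were called between untreated genotypes, against 121 with the compared groups only, 32 without a filter, 126 with DESeq2 and 12 to 59 with 1 library left out, where 59 came without replicate 2 of the treated bKO islets. With cytokines 46 were called, against 0 with the compared groups only, 190 without a filter, 674 with DESeq2 and 4 to 444 with 1 library left out, where 444 came without replicate 1 of the treated bKO islets and 69 without replicate 2.

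Of the ligand genes, 11 had too few reads to be tested, and Ifna1, Ifna4, Ifna5, Ifnk and Il20 had 0 counts in all 12 libraries. Whether depth or absent RNA was the reason was not tested.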
